A study of Mus musculus with 6 samples.

Results

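Genes of cholesterol synthesis and of its transcriptional control were followed in wild-type primary mouse myeloid cells, in 3 libraries treated for 24 h with trimethylamine N-oxide (TMAO) and 3 control libraries. TMAO is a small amine oxide formed in the liver from a gut bacterial product. The 27 genes were chosen by name, as a list of pathway members, with earlier results of these data known. All 27 were found among the 25751 genes of the count table. They comprise 20 enzymes that lead from acetyl-CoA to cholesterol, 6 genes of the machinery around the transcription factor SREBP2, and the sterol carrier gene Stard4. Some enzymes of the pathway are not reported here. The deposited columns name the treated libraries T-BMDM and the others Control, and no label explains the difference in naming. No dose of TMAO, sex or age is given in the labels. They do not say if replicates were grown or prepared independently, and the p-values therefore reflect variation among these 6 libraries that could be technical.

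Cells make cholesterol from acetyl-CoA. The first enzymes produce mevalonate and then the isoprenoid diphosphates, which also serve protein prenylation, and squalene synthase commits the chain to sterols. Squalene is closed into lanosterol, and a series of demethylation, isomerisation and reduction steps on that ring system yields cholesterol. The control is by feedback. When sterols in the endoplasmic reticulum (ER) are plentiful, the INSIG proteins hold SCAP and SREBP2 there. When sterols are scarce, SCAP carries SREBP2 to the Golgi, where the site-1 and site-2 proteases cut it in turn and release a fragment that switches on the enzymes, INSIG1 and SREBP2 itself. Macrophages depend on this balance because they take up cholesterol from lipoproteins and dying cells.

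With TMAO most of the enzymes were higher, while the escort gene Scap and the protease genes Mbtps2 and Mbtps1 were lower, Mbtps1 turning to 0.09 (log2 fold change) when the trend on transcript length was removed. Of the 20 enzymes, 13 rose, 2 fell and 5 did not pass the test, and in the whole list of 27 genes 16 rose, 6 fell and 5 did not pass. The test was edgeR's quasi-likelihood F test, with p-values adjusted by Benjamini-Hochberg over all 14626 genes tested, and a gene was called at an adjusted p under 0.05. That background was high: 65.7% of all genes tested were called, 33% higher and 32.7% lower with TMAO. The members' share of calls, 22 of 27, is to be read against it. The median log2 fold change (TMAO over control) was 0.41 over the 27 genes and 0.48 over the enzymes, against 0.01 over all genes tested. In bulk RNA, fewer cells of a type and less RNA per cell cannot be told apart. The median absolute log2 fold change was 0.61 for the members and 0.66 for all genes tested, and 6 members were called with at least a 2-fold change, a class that held 30.4% of all genes tested. The TMAO and control CPM values were fully apart in 23 of the 27 members and in 71% of all genes tested. CPM here is the count scaled to library size with TMM factors, and it is not divided by transcript length.

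**Figure D1:**
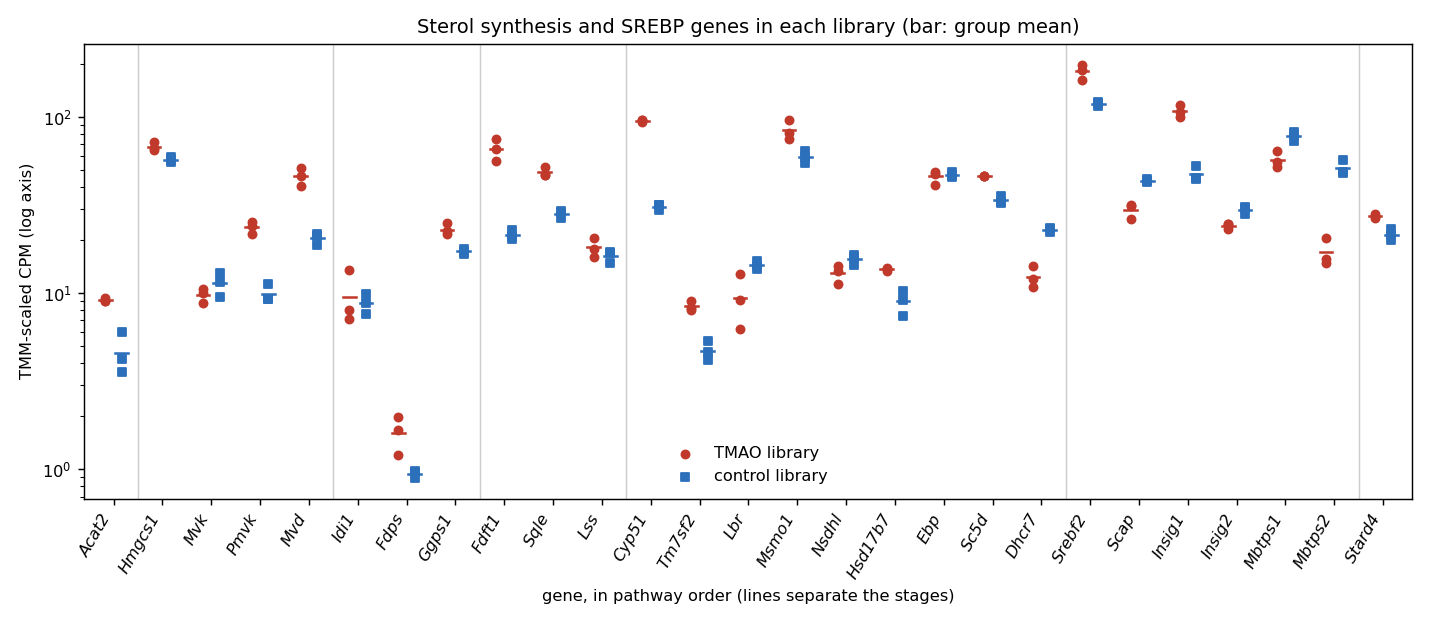
TMM-scaled CPM (log axis) of each of the 27 genes in the 3 TMAO libraries (circles, left) and the 3 control libraries (squares, right), in pathway order, with a bar at each group mean. The groups are fully apart in 23 genes; Mvk, Idi1, Lss and Ebp overlap.

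**Figure D2:**
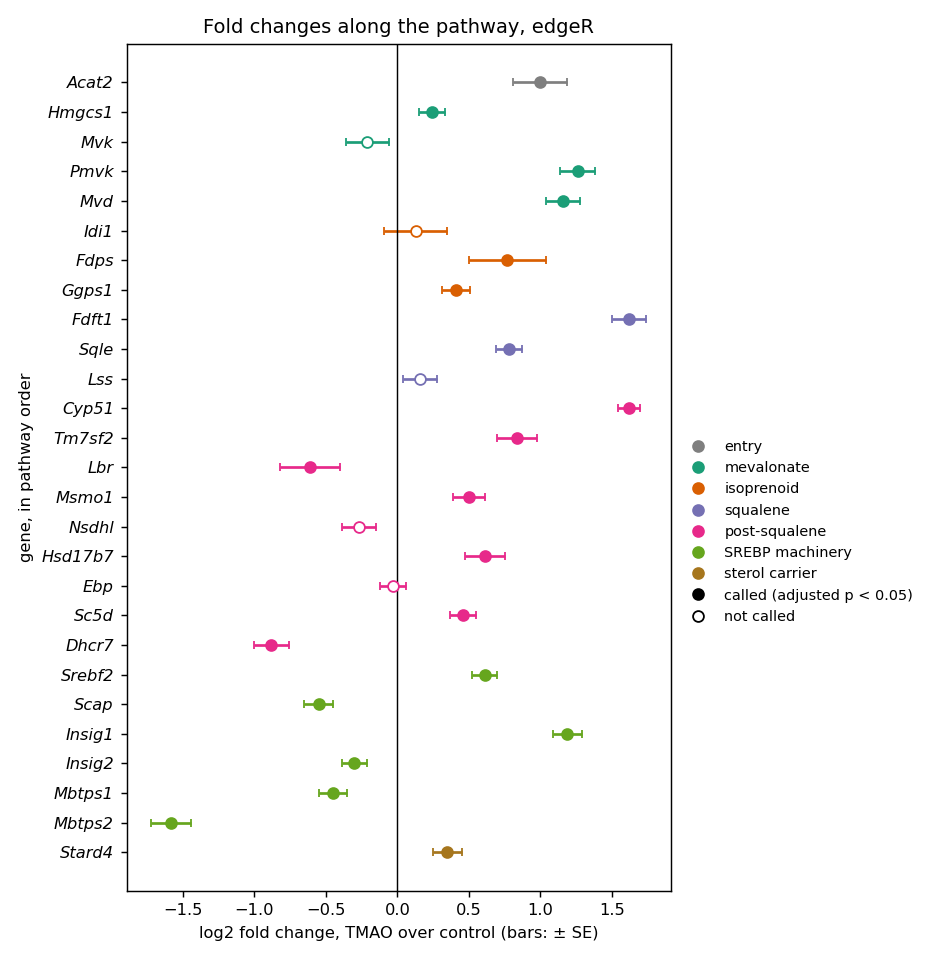
The log2 fold change (TMAO over control) of each gene from edgeR with its SE, in pathway order from top to bottom and coloured by stage, with open circles for the 5 genes that were not called. Values run from 1.62 for Fdft1 and Cyp51 to -1.58 for Mbtps2.

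SREBP2 binds the sterol regulatory element, and its target promoters usually also carry sites for NF-Y and Sp1, which assist it. RefSeq promoters (GRCm38.p6, an older build than that of the counts) were available for 23 of the 27 genes, in 29 windows, and the 250 bases before each gene start were searched on both strands. The motifs were TCACNCCAC for the sterol regulatory element, also with at most 1 of its fixed letters different, CCAAT for NF-Y and GGGCGG for Sp1. The exact element was present in 1 of the 23 genes, Hmgcs1, and in 1.25% of the 10250 tested genes with a window. Allowing 1 different letter, it was present in 10 of the 23 genes (43.5%), against 25.6% of the tested genes. CCAAT was present in 19 of 23 (82.6%), against 40.5%, and GGGCGG in 20 of 23 (87%), against 61.9%. By call, CCAAT was in 11 of 12 genes that rose, 3 of 6 that fell and 5 of 5 that did not pass the test. GGGCGG was in 10 of 12, 5 of 6 and 5 of 5 of these classes, and the element with at most 1 different letter in 7 of 12, 2 of 6 and 1 of 5. A gene was counted if any of its windows held the motif. Dhcr7, Insig2 and Scap, which fell, and Pmvk, which rose, had more than 1 window. The classes were thus not searched over equal lengths of sequence. Dhcr7 and Insig2 each held CCAAT in only 1 of their windows. In Msmo1 a near match to the element overlapped a CCAAT. A match describes letters only, and no match says only that these letters are absent from this window. The relaxed search was added after the exact one had been seen.

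The bases before the start are shown for 5 genes that rose, as examples with the element, a near match or CCAAT. They are also shown for Mbtps2, the gene that fell most, whose window held none of the motifs. These examples do not compare genes that rose with genes that fell. Dhcr7, Insig2 and Lbr, which fell, and Mvk, which was not called, held CCAAT too and are not shown. Letters are given 5′ to 3′ on the gene's strand, and capitals mark the element (exact or with 1 different letter) and CCAAT in either orientation.
Hmgcs1, chr13:119690101-119690350, + strand: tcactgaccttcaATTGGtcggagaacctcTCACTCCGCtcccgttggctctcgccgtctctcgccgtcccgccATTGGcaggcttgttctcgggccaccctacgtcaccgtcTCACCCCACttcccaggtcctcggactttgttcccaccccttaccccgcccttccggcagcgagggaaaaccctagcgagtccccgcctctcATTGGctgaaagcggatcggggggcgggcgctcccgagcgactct
Cyp51, chr5:4104698-4104947, - strand: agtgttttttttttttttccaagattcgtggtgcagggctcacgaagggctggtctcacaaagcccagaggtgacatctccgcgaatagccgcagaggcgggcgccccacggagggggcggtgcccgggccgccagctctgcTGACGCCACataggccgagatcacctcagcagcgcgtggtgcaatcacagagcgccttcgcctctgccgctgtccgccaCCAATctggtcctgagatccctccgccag
Mvd, chr8:122443423-122443672, - strand: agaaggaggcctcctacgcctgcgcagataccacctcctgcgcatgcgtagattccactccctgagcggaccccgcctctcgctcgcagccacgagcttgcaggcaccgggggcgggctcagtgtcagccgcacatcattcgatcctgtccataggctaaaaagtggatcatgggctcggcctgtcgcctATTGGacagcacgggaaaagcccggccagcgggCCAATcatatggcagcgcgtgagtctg
Srebf2, chr15:82147019-82147268, + strand: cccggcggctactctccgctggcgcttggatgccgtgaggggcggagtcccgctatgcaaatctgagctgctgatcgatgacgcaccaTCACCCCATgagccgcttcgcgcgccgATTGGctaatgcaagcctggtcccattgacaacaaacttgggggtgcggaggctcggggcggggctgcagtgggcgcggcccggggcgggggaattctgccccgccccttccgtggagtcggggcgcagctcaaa
Insig1, chr5:28071162-28071411, + strand: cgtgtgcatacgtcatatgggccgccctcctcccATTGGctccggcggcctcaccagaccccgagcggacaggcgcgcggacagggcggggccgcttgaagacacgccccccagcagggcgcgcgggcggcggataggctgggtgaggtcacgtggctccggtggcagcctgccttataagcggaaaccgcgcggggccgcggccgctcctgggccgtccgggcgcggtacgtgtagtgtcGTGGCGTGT
Mbtps2, chrX:157598716-157598965, - strand: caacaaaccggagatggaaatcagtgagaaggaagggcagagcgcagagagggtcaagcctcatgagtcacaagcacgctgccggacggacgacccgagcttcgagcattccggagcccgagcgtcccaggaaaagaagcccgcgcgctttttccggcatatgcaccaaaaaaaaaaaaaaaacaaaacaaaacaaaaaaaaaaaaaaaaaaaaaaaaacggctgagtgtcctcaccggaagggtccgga
Hmgcs1 held the exact element 137 to 129 bases before its start, a near match 220 to 212 bases before, and 3 CCAAT boxes. The Cyp51 near match lay 108 to 100 bases before the start, that of Srebf2 162 to 154 bases before it, and that of Insig1 at the last 9 bases. Mvd held 2 CCAAT boxes and no match to the element.

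Transcripts of the factors themselves moved in different directions. Nfyc, an NF-Y subunit, averaged 40.1 ± 3.10 CPM with TMAO and 28.8 ± 3.61 CPM in controls and rose (edgeR adjusted p = 0.00365), whereas Nfya (123 ± 12.7 and 141 ± 6.56 CPM) and Nfyb (17 ± 1.15 and 14.5 ± 1.20 CPM) did not pass the test (edgeR adjusted p = 0.0984 and 0.0956). Sp1 fell to 61.9 ± 2.28 CPM with TMAO, against 98.4 ± 16.2 CPM in controls (log2 fold change -0.67, edgeR adjusted p = 0.000542). Errors are SD over 3 libraries throughout. These 4 genes were picked for description because their motifs were searched.

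The entry and mevalonate steps rose at 4 of 5 genes, beside 33% of all genes tested called higher. Acat2, the cytosolic thiolase that joins acetyl-CoA units, had 9.08, 9.02 and 9.44 CPM in the TMAO libraries, against 3.55, 5.99 and 4.24 CPM in controls. The TMAO values were close together and all above the controls (log2 fold change 1.00, SE 0.19, edgeR adjusted p = 0.000818). A transcript of its near-identical neighbour Acat3 matches Acat2 at 97.7% over 1477 bases, so reads may be split between them, although Acat3 held only 83 counts in all libraries. Another 445 bases match Tcp1, a chaperonin gene, at 98.7%. Tcp1 had 20940 counts over the TMAO libraries and 15691 over the controls, so the Acat2 level is uncertain. Hmgcs1, HMG-CoA synthase, had 64.9, 71.9 and 66.5 CPM with TMAO, against 55.4, 59.0 and 57.1 CPM in controls. The groups did not overlap but the gap was small (log2 fold change 0.24, SE 0.09, edgeR adjusted p = 0.0277). The Hmgcs1 call was lost when any of TMAO replicate 2 or 3 or control replicate 1 or 3 was left out (edgeR adjusted p = 0.0659 to 0.133), with log2 fold changes of 0.20 to 0.26.

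The lower mevalonate pathway showed larger rises. Pmvk, phosphomevalonate kinase, had 21.6, 24.2 and 25.4 CPM with TMAO, against 9.24, 11.2 and 9.25 CPM in controls (log2 fold change 1.26, SE 0.12, edgeR adjusted p = 1.04e-05). Mvd, the decarboxylase that makes isopentenyl diphosphate, had 46.2, 40.3 and 51.6 CPM with TMAO, against 21.7, 21.2 and 18.7 CPM in controls (log2 fold change 1.16, SE 0.12, edgeR adjusted p = 1.06e-05). In both genes every TMAO library was well above every control. The kinase between Hmgcs1 and Pmvk in the list, Mvk, averaged 9.78 ± 0.871 CPM with TMAO and 11.4 ± 1.79 CPM in controls, with overlapping groups, and was not called (log2 fold change -0.21, edgeR adjusted p = 0.217).

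Of the 3 isoprenoid genes, Ggps1 and Fdps rose and Idi1 was not called. Idi1, which interconverts the isopentenyl diphosphate isomers, had 13.5, 7.10 and 8.06 CPM with TMAO, against 8.77, 7.61 and 9.88 CPM in controls, and was not called (log2 fold change 0.13, SE 0.22, edgeR adjusted p = 0.64). Its first TMAO library stood above all others and the others lay at or below the middle of the control range. Without that library the log2 fold change turned to -0.21, still not called. The Idi1 transcript shares 684 bases without a mismatch with Gm13502, which held 70 counts. Ggps1, which makes geranylgeranyl diphosphate for prenylation, off the route to sterols, rose to 23 ± 1.70 CPM with TMAO, against 17.3 ± 0.579 CPM in controls (log2 fold change 0.41, edgeR adjusted p = 0.0049).

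Fdps, farnesyl diphosphate synthase, was the least abundant member, with 1.97, 1.21 and 1.67 CPM in TMAO libraries and 0.978, 0.894 and 0.969 CPM in controls, from as few as 37 counts a library. It rose (log2 fold change 0.77, SE 0.27, edgeR adjusted p = 0.0293), but leaving out any one library other than TMAO replicate 2 ended the call (edgeR adjusted p = 0.0614 to 0.115). In the GRCm38 annotation 1124 of its exonic bases are shared with Gm43738 on the same strand, which had 1 count in all. How reads in shared exons were counted is not given in the sources used here, so its level per length, the lowest of the list at 0.547 CPM per kb with TMAO and 0.321 in controls, is uncertain.

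Squalene synthesis carried one of the largest rises. Fdft1, squalene synthase, the first enzyme committed to sterols, had 55.9, 74.9 and 66.1 CPM with TMAO, against 21.1, 22.9 and 20.3 CPM in controls, a 3.07-fold rise (log2 fold change 1.62, SE 0.12, edgeR adjusted p = 1.48e-06). The lowest TMAO library exceeded the highest control more than the controls differed among themselves. Fdft1 overlaps 774 exonic bases of Ctsb, an abundant protease gene on the opposite strand, and the strand setting of the counting is not stated. Ctsb had 983151 counts over the TMAO libraries and 1680173 over the controls, so it was lower where Fdft1 was higher. Sqle, squalene epoxidase, which performs the first oxygenation and is a control point of the pathway, rose to 48.6 ± 3.01 CPM with TMAO, against 28.3 ± 1.4 CPM in controls (log2 fold change 0.78, SE 0.09, edgeR adjusted p = 3.92e-05). Lss, which closes the ring to lanosterol, averaged 18.2 ± 2.24 CPM with TMAO and 16.3 ± 1.22 CPM in controls and was not called (log2 fold change 0.16, edgeR adjusted p = 0.279).

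After lanosterol, 5 of 9 genes rose and 2 fell, beside 33% of all genes tested called higher and 32.7% lower. Cyp51, the lanosterol 14-alpha demethylase, had 94.0, 96.6 and 95.6 CPM with TMAO, against 31.8, 29.6 and 31.6 CPM in controls. The groups were far apart, at a 3.08-fold difference (log2 fold change 1.62, SE 0.08, edgeR adjusted p = 1.43e-07). Its exons overlap those of Akap9, on the opposite strand, by 166 bases, and Akap9 had 2937 counts over the TMAO libraries and 5650 over the controls. Msmo1, the C4 methyl oxidase, rose to 83.9 ± 10.7 CPM, against 59.4 ± 4.31 CPM in controls (log2 fold change 0.50, edgeR adjusted p = 0.00227). Stretches of about 200 bases of Msmo1 match 10 other genes at 95% identity or more. Hsd17b7, a keto-reductase of the same demethylation cycle, rose to 13.7 ± 0.302 CPM, against 8.97 ± 1.42 CPM in controls (log2 fold change 0.61, edgeR adjusted p = 0.00272). Sc5d, lathosterol oxidase, rose to 46.2 ± 0.237 CPM, against 33.6 ± 1.69 CPM in controls (log2 fold change 0.46, edgeR adjusted p = 0.000863). Nsdhl, the decarboxylating dehydrogenase that acts between Msmo1 and Hsd17b7, averaged 12.9 ± 1.57 CPM with TMAO and 15.6 ± 0.945 CPM in controls and was not called, although the groups did not overlap (log2 fold change -0.27, edgeR adjusted p = 0.078). Without TMAO replicate 1 it was called lower (log2 fold change -0.35, edgeR adjusted p = 0.0317).

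Of the last genes in the list of enzymes, Sc5d rose and Dhcr7 fell. Ebp, the sterol isomerase, averaged 45.9 ± 4.01 CPM with TMAO and 46.9 ± 1.46 CPM in controls and did not pass the test (edgeR adjusted p = 0.79). Dhcr7, 7-dehydrocholesterol reductase, whose substrate can also become vitamin D, had 14.3, 10.8 and 12.1 CPM with TMAO, against 23.3, 23.1 and 22.1 CPM in controls. It fell in every comparison of a TMAO with a control library (log2 fold change -0.88, SE 0.12, edgeR adjusted p = 0.00012). Among the first 11 enzymes of the list, Acat2 to Lss, 8 rose and none fell, at a median log2 fold change of 0.77. Of all genes tested, 33% were called higher and 32.7% lower. Among the 9 later ones the median was 0.46. The difference between these stretches was not tested.

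Tm7sf2 and Lbr encode enzymes for the same step, reduction of the C14 double bond, and they went in opposite directions. Tm7sf2 rose to 8.45 ± 0.553 CPM with TMAO, against 4.71 ± 0.576 CPM in controls (log2 fold change 0.84, SE 0.14, edgeR adjusted p = 0.000472). Lbr, the lamin B receptor, a protein of the inner nuclear membrane that binds chromatin as well as reducing sterols, had 12.8, 6.30 and 9.18 CPM with TMAO, against 14.2, 13.8 and 15.2 CPM in controls. It fell (log2 fold change -0.61, SE 0.21, edgeR adjusted p = 0.0271), but its TMAO libraries were widely spread. The Lbr call was lost without TMAO replicate 3, control replicate 1 or control replicate 3 (edgeR adjusted p = 0.0565 to 0.08) and after removal of the trend on length (0.0535) or GC content (0.093). Tm7sf2 shares 532 exonic bases with Vps51 on the same strand. Vps51 had 4717 counts over the TMAO libraries and 3361 over the controls, and was thus higher with TMAO too and more abundant than Tm7sf2. The part of shared reads in the Tm7sf2 rise, and in its ratio to Lbr, was not tested.

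Counts summed over a stage put these genes together by their abundance. The 20 enzymes summed to 637, 665 and 652 CPM with TMAO, against 424.5, 443 and 434.5 CPM in controls, a ratio of means of 1.5. By stage the ratio was 1.49 for the mevalonate genes, 1.26 for the isoprenoid genes, 2 for the squalene genes and 1.38 for the later genes. The libraries of the groups did not overlap in any of these 4 sums. Single genes weighed heavily in them. Fdft1 averaged 65.7 CPM with TMAO and 21.4 CPM in controls, within squalene sums of 132 and 66 CPM. Cyp51 averaged 95.4 and 31 CPM, within sums of 328 and 237 CPM for the later genes. Per kilobase of the longest annotated transcript, the most abundant enzymes with TMAO were Msmo1 at 28.3, Ebp at 26.4, Mvd at 25.1 and Cyp51 at 24.3 CPM per kb. In controls they were Ebp at 26.9, Msmo1 at 20, Hmgcs1 at 16.5 and Mvd at 11.2 CPM per kb, with Cyp51 at 7.89.

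**Figure D3:**
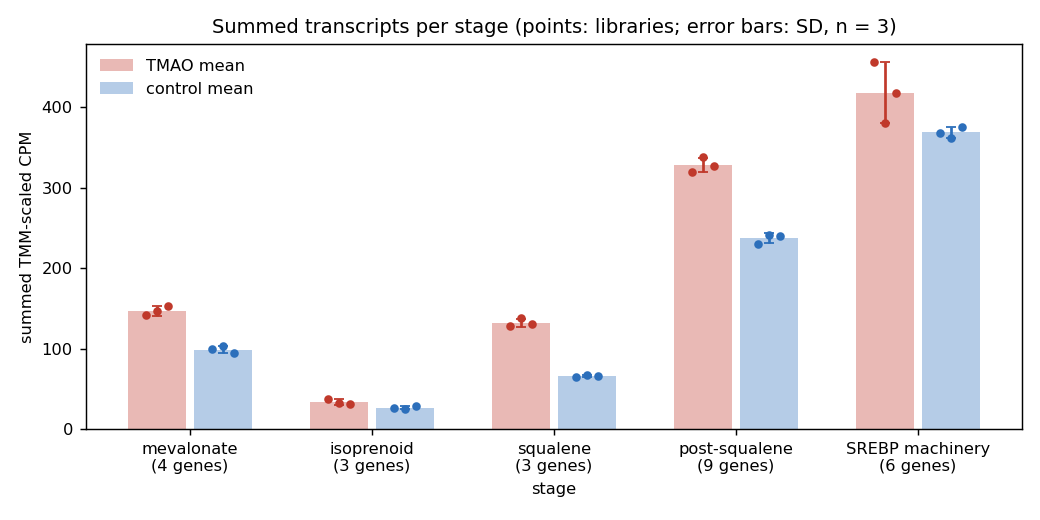
Summed TMM-scaled CPM of the genes of each stage, with TMAO left of control; bars are means, points are libraries and error bars are SD (n = 3). The squalene genes sum to 129 to 138 CPM with TMAO and 64.6 to 67.0 CPM in controls, while the 6 SREBP machinery genes sum to 380 to 456 and 362 to 376 CPM.

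Within the SREBP machinery, Srebf2 and Insig1 rose. Scap, Insig2, Mbtps2 and Mbtps1 fell, Mbtps1 only while the length trend was kept. The activity of SREBP2 was not tested. Srebf2, the gene of SREBP2, had 198, 163 and 185 CPM with TMAO, against 120, 121 and 116 CPM in controls (log2 fold change 0.61, SE 0.09, edgeR adjusted p = 0.000195). Insig1, which retains SCAP and is itself an SREBP target, had 117, 100 and 107 CPM with TMAO, against 44.8, 44.2 and 52.5 CPM in controls (log2 fold change 1.19, SE 0.10, edgeR adjusted p = 3.9e-06). Per kilobase these were the most abundant members with TMAO, Insig1 at 40.0 and Srebf2 at 35.8 CPM per kb, against 17.5 and 23.5 in controls. Stard4, which carries cholesterol between membranes and is a known SREBP2 target, rose to 27.5 ± 0.708 CPM, against 21.5 ± 1.54 CPM in controls (log2 fold change 0.35, edgeR adjusted p = 0.00824).

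Scap, the sterol sensor that escorts SREBP2, had 31.5, 26.3 and 31.2 CPM with TMAO, against 42.6, 44.6 and 43.5 CPM in controls, and fell (log2 fold change -0.55, SE 0.10, edgeR adjusted p = 0.000599). Mbtps2, the site-2 protease, which makes the second cut within the membrane, had 20.6, 15.6 and 14.9 CPM with TMAO, against 47.9, 48.6 and 56.8 CPM in controls. This 3-fold lower level was the strongest fall of the list (log2 fold change -1.58, SE 0.14, edgeR adjusted p = 4.23e-06), and the groups were far apart. The Mbtps2 exons share 2867 bases with Yy2, on the same strand, and the longest Mbtps2 transcript has 4.8 kb. Yy2 is not among the genes of the count table, and how reads in shared exons were counted is not given. The Mbtps2 level is thus uncertain, and the part of shared reads in its fall was not tested. Mbtps1, the site-1 protease, averaged 57.1 ± 6.48 CPM with TMAO and 77.9 ± 4.45 CPM in controls and fell in the same fit (log2 fold change -0.45, SE 0.10, edgeR adjusted p = 0.00307). Once the trend on length was taken out, Mbtps1 stood at a log2 fold change of 0.09 and was not called (edgeR adjusted p = 0.456). Both proteases also cut other membrane-bound factors, among them ATF6.

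Insig2, the other ER anchor, had 24.7, 23.2 and 24.7 CPM with TMAO, against 30.9, 30.4 and 28.1 CPM in controls. It fell slightly (log2 fold change -0.30, SE 0.09, edgeR adjusted p = 0.0147), while Insig1 rose. The Insig2 call was lost without control replicate 1 (edgeR adjusted p = 0.0661) and with the GC trend removed (0.0968). The ratio of the pair can be read within a library, free of scaling between libraries. Counts of Insig1 were 4.32 to 4.72 times those of Insig2 with TMAO and 1.45 to 1.87 times in controls. The mean log2 ratio was 2.15 ± 0.073 with TMAO and 0.66 ± 0.21 in controls, a difference of 1.5 (two-sided exact permutation test, p = 0.1, the smallest value that 3 against 3 libraries allow). The log2 ratio of Tm7sf2 to Lbr averaged -0.10 ± 0.59 with TMAO and -1.62 ± 0.21 in controls, a difference of 1.52 (exact permutation p = 0.1). That of Mbtps1 to Mbtps2 averaged 1.76 ± 0.13 with TMAO and 0.61 ± 0.15 in controls, a difference of 1.15 (exact permutation p = 0.1). The part of reads shared by Mbtps2 and Yy2 in this ratio was not tested, nor was that of the trends on length and GC content. In none of the 3 ratios did the groups overlap, and no difference can pass 0.05 in this design.

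**Figure D4:**
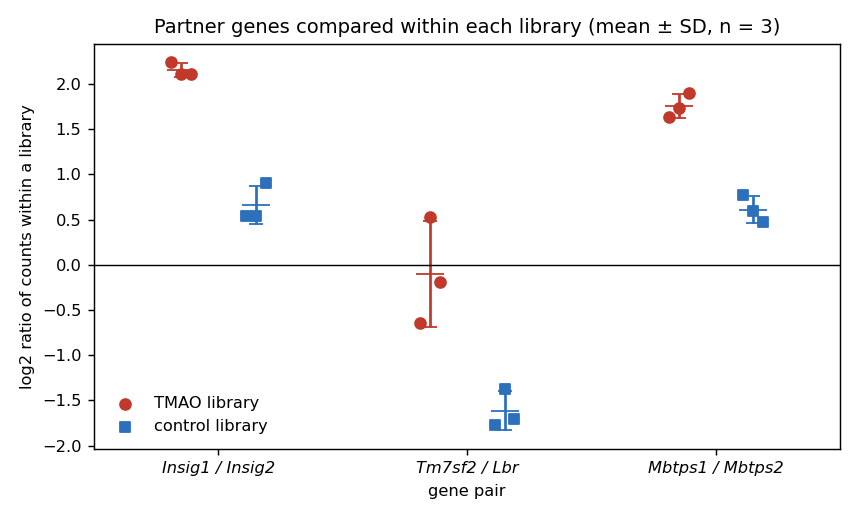
The log2 ratio of counts of 3 gene pairs within each library, with TMAO libraries (circles) left of control libraries (squares), and the mean and SD of each group (n = 3). All 3 ratios are higher in every TMAO library, and Tm7sf2 over Lbr is the most widely spread with TMAO, from -0.64 to 0.53.

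Lists of genes around the pathway are given for context, beside a background of 33% of all genes tested called higher and 32.7% called lower, and nothing particular to a list is read from its counts. Of 16 genes that use isoprenoids for prenylation, ubiquinone or dolichol, 6 rose and 3 fell (median log2 fold change 0.20). Rce1, a protease that trims prenylated proteins, rose to 47.6 ± 6.30 CPM, against 21.7 ± 2.41 CPM in controls (edgeR adjusted p = 2.3e-05), and Zmpste24, another such protease, fell to 48.6 ± 6.38 CPM, against 73.6 ± 6.63 CPM in controls (edgeR adjusted p = 0.00098). Of 20 genes that degrade, anchor or assist the SREBP system and sterol enzymes, 7 rose and 9 fell (median -0.11). Ube2g2, a ubiquitin-conjugating enzyme of ER-associated degradation, rose to 117 ± 11.2 CPM, against 50.5 ± 1.78 CPM in controls (edgeR adjusted p = 2.14e-06), and Pgrmc1, a haem-binding ER membrane protein that binds P450 enzymes, fell to 46.8 ± 2.19 CPM, against 101 ± 2.46 CPM in controls (edgeR adjusted p = 1.69e-06).

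Of 13 genes that supply acetyl-CoA and NADPH, 5 rose and 4 fell (median 0.10). Me1, the NADPH-forming malic enzyme, rose to 13.3 ± 1.43 CPM, against 6.44 ± 0.730 CPM in controls (edgeR adjusted p = 8.68e-05), and Idh1, cytosolic isocitrate dehydrogenase, fell to 94.5 ± 5.87 CPM, against 221 ± 7.49 CPM in controls (edgeR adjusted p = 9.5e-07). Of 12 sterol transport genes, 4 rose and 6 fell (median -0.36), with Stard5 at 60.4 ± 3.18 and 40.9 ± 1.35 CPM and Osbpl11 at 30.4 ± 6.80 and 66.7 ± 4.58 CPM in TMAO and control libraries.

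Of 8 oxysterol and sterol side-branch genes tested, 2 rose and 5 fell (median -0.87). Ch25h, which makes 25-hydroxycholesterol, an oxysterol that retains SREBP2 in the ER, rose to 12.1 ± 1.11 CPM with TMAO, against 0.130 ± 0.0723 CPM in controls (log2 fold change 6.49, SE 0.27, edgeR adjusted p = 3.38e-08). Lipa, the lysosomal acid lipase that frees cholesterol from lipoprotein esters, fell to 338 ± 29.7 CPM, against 1760 ± 94.2 CPM in controls (log2 fold change -2.38, SE 0.10, edgeR adjusted p = 3.16e-08). Both kept their direction and their call in every alternative fit.

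Markers of other cells moved with these genes. Their counts are also to be read beside the 33% of all genes tested called higher and 32.7% called lower. Of 18 markers of neutrophils and their precursors 16 rose, and their summed level was 4470 to 5760 CPM in TMAO libraries and 328 to 369 CPM in controls, S100a9 and Ngp being the most abundant. All 12 monocyte markers rose (1210 to 1280 and 251 to 317 CPM, Ly6c2 and Chil3 leading) and 13 of 14 proliferation markers rose (646 to 720 and 298 to 349 CPM). The exception was Pcna, the most abundant of them, at 244 ± 4.11 CPM with TMAO and 241 ± 23.7 CPM in controls (edgeR adjusted p = 0.851), so the sum understates the others. Mki67, the next in abundance, rose to 146 ± 24.2 CPM with TMAO, against 25.5 ± 2.44 CPM in controls (log2 fold change 2.52, edgeR adjusted p = 1.65e-07). Of 12 macrophage markers, 4 rose and 5 fell, and their sum was 39800 to 48700 CPM with TMAO and 44300 to 49100 CPM in controls, mostly Lyz2, with Csf1r next. Lyz2 was not called (log2 fold change 0.01, edgeR adjusted p = 0.923) and sets that sum. Named after their values were seen, the macrophage markers Mertk, Fcgr1 and Adgre1 fell, with log2 fold changes of -3.31, -2.07 and -1.70 (edgeR adjusted p = 8.27e-08, 8.27e-08 and 4.76e-07). Cd68 and Csf1r fell less (-0.81 and -0.28). The 4 macrophage markers that rose were C1qa, C1qb, Mrc1 and C1qc (log2 fold changes 0.75, 0.67, 0.34 and 0.22). The median over the 12 macrophage markers was -0.06. Of tested dendritic cell markers 6 of 9 rose and 1 fell (264 to 278 and 209 to 214 CPM), of B cell markers 5 of 6 rose and none fell (11.9 to 16 and 2.44 to 3.58 CPM), and of erythroid and megakaryocyte markers 5 of 6 rose and 1 fell (353 to 537 and 47.0 to 66.4 CPM). Markers without a count in any control library numbered 2 of 10 for dendritic cells, 3 of 8 for B cells and 1 of 10 for the erythroid and megakaryocyte list, and none in the other marker lists. The part of these cells in the sterol gene differences was not tested.

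Transcript length and base composition also moved with the fold changes. When genes were split by transcript length into 5 classes of near-equal size, the class of shortest genes had a median of 0.49 (log2 fold change) and the class of longest genes one of -0.53. With the trend on length removed, the members' median log2 fold change was 0.70 and the enzymes' 0.74. With the trend on GC content removed these were 0.54 and 0.71, so both medians were larger. Single genes moved either way. Without the length trend Pmvk went from 1.26 to 0.89 and Mvd from 1.16 to 0.92, while Sqle went from 0.78 to 1.03. Without the GC trend Srebf2 went from 0.61 to 0.36, while Ggps1 went from 0.41 to 0.74. Counts of calls changed little, with 17 higher and 6 lower without the length trend and 16 higher and 5 lower without the GC trend. Lss, in the longest class, was called higher without the length trend (log2 fold change 0.71, edgeR adjusted p = 0.000566), and Nsdhl and Ebp were called lower (log2 fold changes -0.44 and -0.29, edgeR adjusted p = 0.0106 and 0.0209). Mvk was called lower without the GC trend (log2 fold change -0.43, edgeR adjusted p = 0.0248). The source of the trends was not tested.

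**Figure D5:**
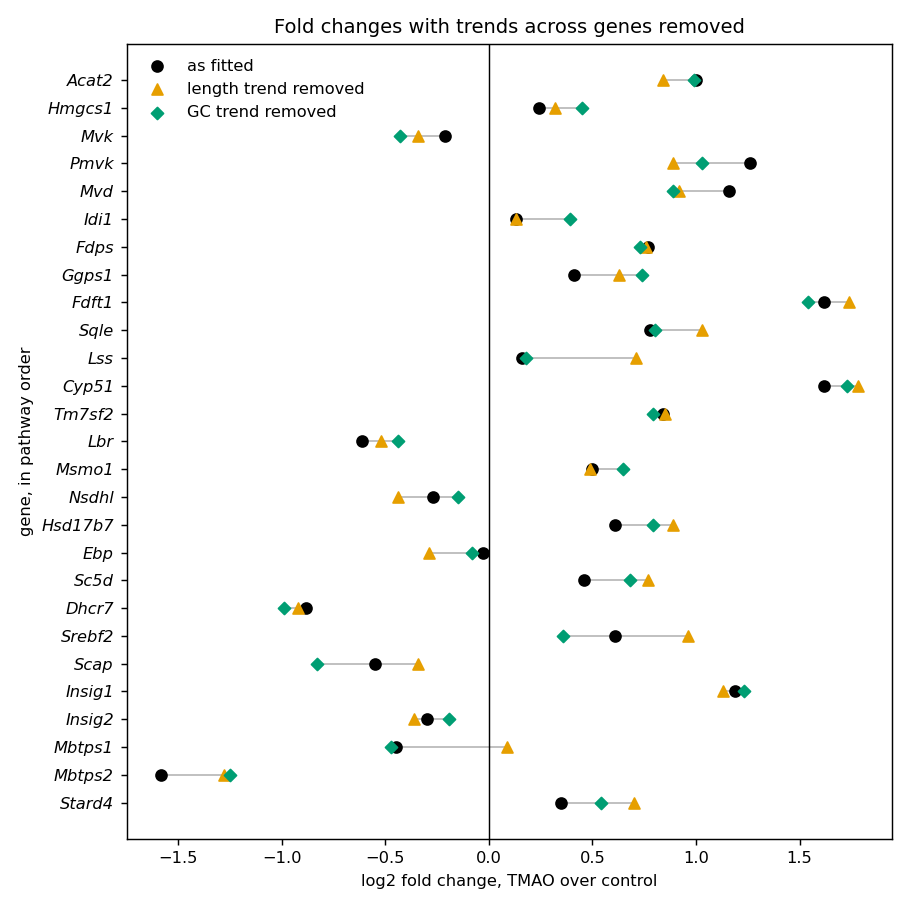
The log2 fold change (TMAO over control) of each gene as fitted (circles), with the trend on transcript length removed (triangles) and with the trend on GC content removed (diamonds), in pathway order. Mbtps1 crosses zero, from -0.45 as fitted to 0.09 without the length trend, and Lss moves from 0.16 to 0.71.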

How the data were processed

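Poly(A)-selected paired-end RNA-seq was measured in 6 libraries; the authors deposited raw counts per Ensembl gene, with no normalization. Per the submitters' processing notes the genome was GRCm39. Aligner, counting program, annotation and use of strand are named in no source used here. Groups came from the sample titles, and columns from the deposited descriptions. Library totals were 37759007 to 41735109 counts. Library pairs of a group differed by a chi-square per degree of freedom of 14.2 to 72.6, so none was treated as a duplicate. Symbols and transcript lengths came from GENCODE M21 (GRCm38) by ID, and 365 IDs had none.

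edgeR 4.0.16 (R 4.3.3) kept 14626 genes (filterByExpr, minimum count 10) and scaled by TMM. TMAO and control were compared by the quasi-likelihood F test, with no covariate, and p-values were adjusted over all genes at a threshold of 0.05. Within-library ratios were tested by two-sided exact permutation. Alternatives used DESeq2 1.42.0, limma-voom (limma 3.58.1) and the other settings of the closing section. Removing a trend means an offset per gene from a loess of the log2 fold change on length or GC content. Overlaps and copies (at least 95% identity over 200 bases) were looked up in GENCODE. The method was tested on simulated data with known changes. In these only a small part of the genes changed, evenly in both directions, without trends on length or GC content. That test therefore does not cover changes as wide as those seen here.

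All 27 members were named. Values of every library are given for members called with a 2-fold change and for some others. In each pathway list the called genes with the highest and lowest fold change were named, and in each marker list at most 2 by mean CPM, with the exceptions stated. Members and lists were chosen with earlier results of these data known. Hsd3b7, of the oxysterol list, was not analysed here.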

Additional observations from a re-analysis of the deposited data

How the results depend on the processing

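Across the 20 alternative fits, 11 of the 27 genes kept their direction and their side of the threshold in all of them: Acat2, Pmvk, Mvd, Fdft1, Sqle, Cyp51, Tm7sf2, Dhcr7, Insig1, Mbtps2 and, apart from its sign, Idi1, which was never called. Testing against a fold of 1.5 left 10 members called, 8 higher and 2 lower, and 5184 genes in all, since it asks for a larger change. The members' median log2 fold change was 0.44 with upper quartile factors, 0.38 with library size only, 0.70 with the length trend removed and 0.54 with the GC trend removed, and the enzymes' median was 0.74 without the length trend and 0.71 without the GC trend. Leaving out one library at a time, the members' median ran from 0.37 to 0.45, the enzymes' median from 0.43 to 0.52 and the members called from 18 to 22. Mbtps1 turned to 0.09 with the length trend removed; the size of its own trend value, -0.54, accounts for this by construction. With no filter on low counts Hmgcs1 was not called (log2 fold change 0.22, edgeR adjusted p = 0.11). The labels do not say if replicate numbers pair the samples. Same-numbered libraries deviated together with correlations of 0.078, 0.255 and -0.152, and differently numbered ones with -0.345 to 0.282. Deviations from a mean of 3 libraries constrain one another, so these values cannot show or exclude pairing. The replicate block gave 22 members and 9723 genes called, and ratio differences of 1.5, 1.52 and 1.15. The ratios were run again without single libraries, with a pseudocount of 1 and with the replicate block. In these runs the differences kept their sign and moved by less than the spread between libraries. The ratios were not run with the length or GC trend removed. The log2 fold changes of Mbtps1 and Mbtps2 were -0.45 and -1.58 as fitted. They were 0.09 and -1.28 without the length trend, and -0.47 and -1.25 without the GC trend. Precision was limited most for Fdps, with 37 counts in its shallowest library.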
